A study of Mus musculus with 6 samples.

Results

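Wnt ligands, their receptors and the proteins that modulate them were followed in mouse embryonic fibroblasts (MEFs) labelled as Ufl1 knockout or control. The members are the genes whose symbol, in any case, names a Wnt ligand, a Frizzled receptor, a co-receptor, an R-spondin or its receptor, a secreted inhibitor, a destruction complex component, a Dishevelled protein or a TCF/LEF factor. This rule found 60 of the 18134 gene names in the table, and each stood on its own row. RNA sequencing gave 3 libraries with the genotype label Ufl1-ko, called Ufl1-KO here, and 3 controls with the label NC, which is not spelled out. Both groups are MEFs, connective tissue cells cultured from embryos. The title of the series speaks of knockdown of UFMylation genes and of 24 hours of hypoxia, whereas the library labels give a genotype and no oxygen level, so the groups are compared by genotype label. No strain, line, clone, embryo or culture is named for any library, so a difference between lines and the effect of genotype cannot be told apart, and p-values measure how far these libraries vary, a spread that could be purely technical.

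Wnt proteins are secreted, lipid-modified signals that bind Frizzled receptors on the cell surface. In the canonical branch they also engage LRP5 or LRP6, which stops a complex built on Axin and APC from marking β-catenin for destruction, and β-catenin then acts with TCF/LEF factors in the nucleus. Other Wnt proteins, with Wnt5a as the best known, act mainly through branches that steer cell polarity and movement. In mesenchymal cells these signals bear on matrix production, bone formation and the choice against fat cell fate. Ufl1 encodes the ligase that attaches the ubiquitin-like protein UFM1 to its targets.

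Library totals ran from 15887011 to 21831860 counts. Ufl1 itself was at 22.9, 27 and 27 CPM (counts scaled to library depth with TMM factors) in the NC libraries and at 3.08, 3.76 and 4.6 CPM in the Ufl1-KO libraries, a log2 fold change of -2.75 (SE 0.15, edgeR adjusted p = 1.34e-06). No label says which part of Ufl1 was altered. Of 13 fibroblast markers, 10 had at least 1 FPKM (fragments per kilobase of transcript, scaled to library depth) in every library, while Thy1 and Lum lay below 1 FPKM in all of them. All 5 endothelial markers and all 3 pluripotency markers were below 1 FPKM throughout. Among epithelial markers Krt18 and Krt14 had at least 1 FPKM in every library, and Epcam, Krt8 and Krt5 had less than 1 in each. The summed FPKM of the fibroblast list was 2200 to 2300 in Ufl1-KO and 3540 to 4010 in NC, that of the blood and macrophage list 13.6 to 18.7 and 24.7 to 29.3, and that of the neural list 7.32 to 8.58 and 3.08 to 3.42. Their part in the results on Wnt genes was not tested, and in bulk RNA fewer cells of a type and less RNA per cell cannot be told apart. NC replicate 1 stood apart from the other controls, with a correlation of log2 CPM of 0.985 and 0.987 with NC replicates 2 and 3, which correlated at 0.994 with each other.

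More Wnt genes were lower than higher in Ufl1-KO, on a background in which most genes differed. Of the 60 members, 42 passed the filter on low counts and 18 did not. In edgeR's quasi-likelihood test with adjustment over all 12224 tested genes, 33 of the 42 differed (78.6%), against 66.7% of all tested genes. Among them 23 were lower and 10 higher, where the share of all genes was 33.4% lower and 33.3% higher. The median log2 fold change, Ufl1-KO over NC, was -0.29 over the tested members and 0.004 over all tested genes. At least 2-fold lower were 12 members and at least 2-fold higher were 3, where 10.1% and 7.19% of all genes passed these limits. The groups did not overlap in CPM for 35 of 42 members, against 71.7% of all genes, and an exact permutation test (two-sided, on log2 CPM) returned p = 0.1 for each of the 35, which is the floor of a design with 3 libraries a group.

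The split between higher and lower genes depended on scaling, for the members and for all genes. With library size alone in place of TMM scaling, the median of all genes shifted to 0.182 and that of the tested members to -0.11. There 13 members were higher and 19 lower of 42, against 5366 and 3119 of all 12224 genes. In the 3 fits to FPKM the median of the members was -0.06 to -0.02 and that of all genes 0.040 to 0.168. All fold changes of counts given here refer to the TMM scale. Without NC replicate 1, 14 members were higher and 23 lower of 43 tested, against 4783 and 4594 of all 12376 genes. Fzd1, Fzd3 and Lgr4 were added to the higher members. The other addition, Wnt7a, met the low-count filter there and was set against 0 counts in both remaining NC libraries. NC replicate 1 was the control nearest to the Ufl1-KO side for 24 of 42 members and for 56.2% of all genes.

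**Figure D1:**
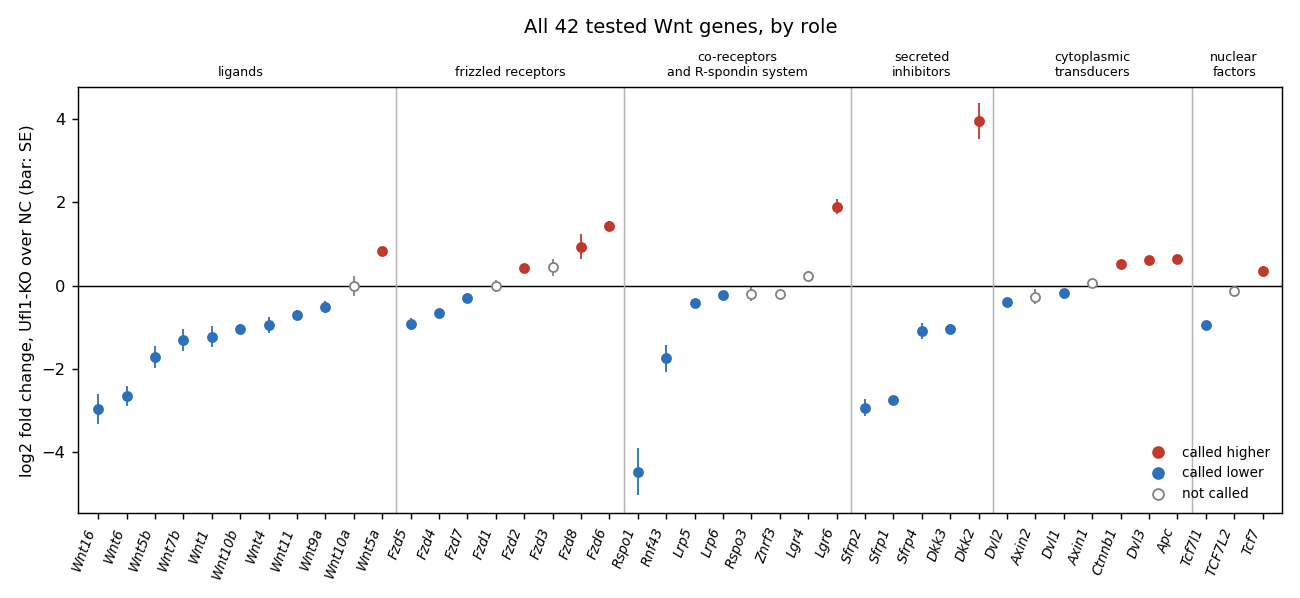
Log2 fold change (Ufl1-KO over NC, y axis) of the 42 tested Wnt genes, grouped by role along the x axis, with the standard error from edgeR as bars. Filled points passed the test. Of the 11 ligands 9 lie below 0 as called genes and Wnt5a is the called ligand above 0, while 3 of the 7 cytoplasmic transducers lie above 0 as called genes.

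Upstream sequence of the members was read to show where the TCF/LEF core and the hypoxia response core occur. RefSeq promoter windows (GRCm38.p6, 250 bases before to 50 after a start) matched 40 members with 50 windows. The TCF/LEF core CTTTGAT on either strand was in 2 of the 50, against 3.73% of all 32851 windows, and these 2 belong to Wnt11 and Wnt5b. The hypoxia response core, ACGTG or GCGTG on either strand, was in 29 of the 50, against 43.8% of all windows. The window of Wnt16, which fell 7.77-fold, held neither core, and that of Rspo1, which fell most, held a hypoxia response core. The 250 bases before the start follow for some of the called members that hold a match. Others with a match, such as Rspo1, Lgr6, Wnt10b and Fzd4, are not printed. Those printed do not stand for all members with a match or for members with large changes. They are Wnt11, with both cores, Wnt6 and Sfrp2, which fell, and Dkk2, which rose. All are on the plus strand, at chr7:98834862-98835111, chr1:74771642-74771891, chr3:83766071-83766320 and chr3:132085042-132085291, with matches in capitals.
Wnt11: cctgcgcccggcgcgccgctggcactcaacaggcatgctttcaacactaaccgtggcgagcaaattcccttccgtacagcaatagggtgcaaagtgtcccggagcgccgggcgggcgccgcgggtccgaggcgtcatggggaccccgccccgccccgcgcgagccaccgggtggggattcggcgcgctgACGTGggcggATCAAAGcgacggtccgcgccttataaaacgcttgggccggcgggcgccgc
Wnt6: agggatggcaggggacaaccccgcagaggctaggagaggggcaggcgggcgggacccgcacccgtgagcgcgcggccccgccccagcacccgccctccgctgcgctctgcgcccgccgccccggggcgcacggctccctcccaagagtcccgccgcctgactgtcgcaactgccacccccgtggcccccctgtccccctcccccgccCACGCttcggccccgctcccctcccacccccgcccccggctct
Sfrp2: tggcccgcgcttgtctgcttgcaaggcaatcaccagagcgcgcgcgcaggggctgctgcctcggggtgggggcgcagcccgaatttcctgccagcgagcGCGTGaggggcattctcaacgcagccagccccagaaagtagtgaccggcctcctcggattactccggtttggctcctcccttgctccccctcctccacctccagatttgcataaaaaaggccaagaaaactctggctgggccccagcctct
Dkk2: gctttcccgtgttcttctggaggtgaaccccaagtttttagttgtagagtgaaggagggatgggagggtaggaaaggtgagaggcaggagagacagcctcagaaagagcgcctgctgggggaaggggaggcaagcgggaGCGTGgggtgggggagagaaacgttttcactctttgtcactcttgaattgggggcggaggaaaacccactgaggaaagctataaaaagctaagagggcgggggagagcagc

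In Wnt11 the hypoxia response core starts 61 bases and the TCF/LEF core, read on the minus strand, 51 bases before the RefSeq start. The GCGTG of Wnt6 lies on the minus strand 43 bases before its start, that of Sfrp2 on the plus strand at 151 and that of Dkk2 at 111. GCGTG was thus in Wnt6 and Sfrp2, which fell, and in Dkk2, which rose, while Wnt11, which also fell, held ACGTG. A match describes letters only and is not a binding site.

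Among the 19 Wnt ligands, 11 could be tested, of which 9 fell, 1 rose and 1 did not pass (median log2 fold change -1.03), where 33.4% of all genes fell and 33.3% rose. Wnt5a, the prototype of the non-canonical ligands, was the ligand that rose. It stood at 25.3, 19.8 and 22.1 CPM in NC and at 40.0, 41.5 and 38.0 CPM in Ufl1-KO, so every Ufl1-KO library was above every NC library. That was a 1.78-fold rise (log2 fold change 0.83, SE 0.10, edgeR adjusted p = 0.000104). Its close relative Wnt5b went the other way, from 3.24, 2.61 and 3.61 CPM in NC to 0.911, 0.654 and 1.26 CPM in Ufl1-KO, a log2 fold change of -1.71 (SE 0.27, edgeR adjusted p = 0.000429). Wnt5a lies on chromosome 14 at 28504750 to 28527448 and Wnt5b on chromosome 6 at 119432531 to 119544347 (GRCm38, GENCODE M21), both annotated as protein coding.

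Wnt6 and Wnt16 had the largest falls among the ligands tested. Wnt6 was at 5.29, 6.74 and 6.54 CPM in NC and 0.651, 1.14 and 1.17 CPM in Ufl1-KO, 6.28-fold lower (log2 SE 0.24, edgeR adjusted p = 1.7e-05). Wnt16, which is known for limiting bone loss in mice, was at 1.32, 1.25 and 1.23 CPM in NC and 0.217, 0.164 and 0.0901 CPM in Ufl1-KO. Its Ufl1-KO libraries held 5, 3 and 2 counts and its NC libraries 22, 23 and 18, so the 7.77-fold difference (log2 SE 0.36, edgeR adjusted p = 0.000109) rests on few reads. Wnt16 also met the low-count filter only through NC, the group where it is high. Neither gene overlapped between the groups.

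Wnt10b, Wnt11 and Wnt4 fell as well. Wnt10b, which is known to hold back fat cell formation, went from 19.8, 22.8 and 21.6 CPM in NC to 10.1, 10.1 and 11.3 CPM in Ufl1-KO (log2 fold change -1.03, SE 0.10, edgeR adjusted p = 3.1e-05). Wnt11, a non-canonical ligand known for its part in convergent extension, went from 14.6, 14.3 and 11.9 CPM to 7.81, 8.50 and 8.79 CPM (log2 fold change -0.70, SE 0.12, edgeR adjusted p = 0.00079). In both genes all NC libraries lay above all Ufl1-KO libraries. Wnt4, a ligand needed for kidney tubule formation, went from 4.99, 5.43 and 3.81 CPM to 2.60, 2.29 and 2.48 CPM (log2 fold change -0.95, SE 0.19, edgeR adjusted p = 0.00163).

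Wnt1, the founding canonical ligand, and Wnt7b, a canonical ligand of lung and kidney, were low and fell further. Wnt1 was at 3.48, 2.66 and 2.11 CPM in NC and 1.34, 1.09 and 1.08 CPM in Ufl1-KO (log2 fold change -1.23, SE 0.25, edgeR adjusted p = 0.00201). Wnt7b was at 3.36, 2.01 and 2.52 CPM in NC and 1.13, 1.04 and 0.992 CPM in Ufl1-KO (log2 fold change -1.31, SE 0.26, edgeR adjusted p = 0.00157). For both, the lowest NC library remained above the highest Ufl1-KO library. Wnt9a fell as well (-0.51, SE 0.14, edgeR adjusted p = 0.01), but with library size scaling it no longer passed (adjusted p = 0.0578), nor in the 3 fits to FPKM (adjusted p from 0.0817 to 0.112). Wnt10a did not pass, at 3.55 ± 0.960 CPM in NC and 3.55 ± 0.795 CPM in Ufl1-KO (SD, n = 3 each).

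**Figure D2:**
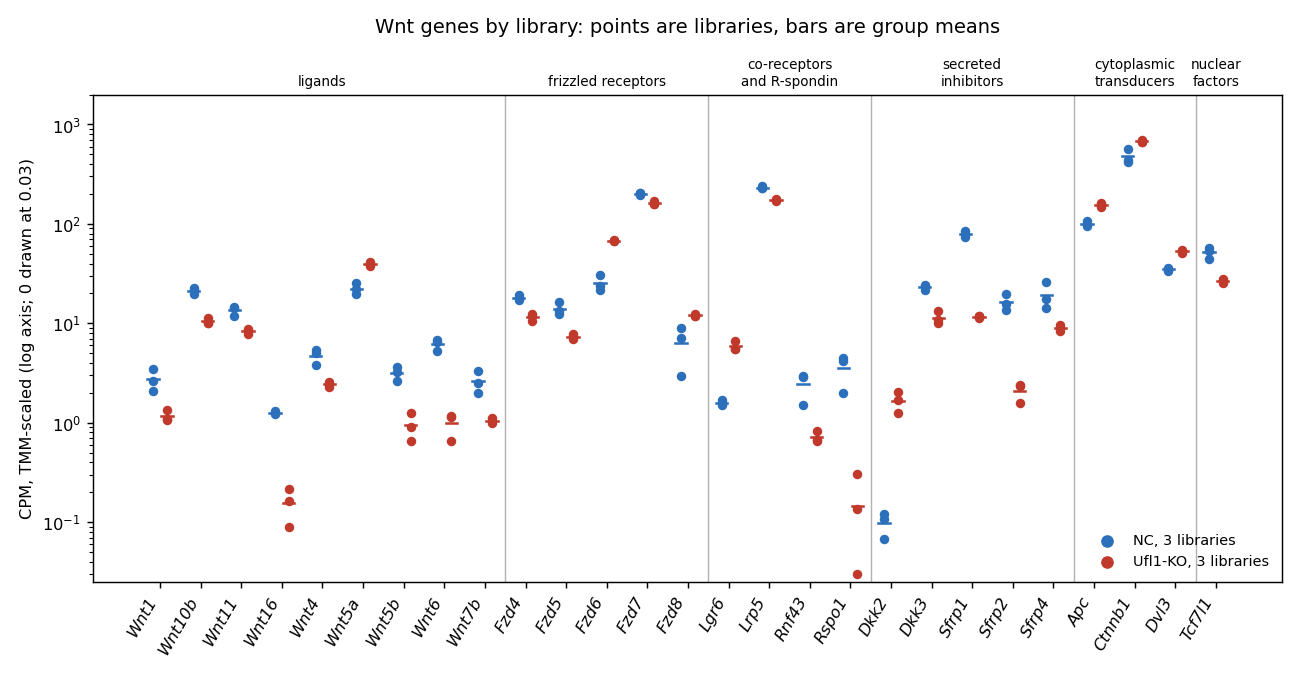
TMM-scaled CPM on a log axis for 27 Wnt genes, those called with an absolute log2 fold change of at least 0.58 and the most abundant of each class, with 1 point per library and a bar at the group mean. NC is blue and Ufl1-KO red, and the Ufl1-KO library of Rspo1 without counts is drawn at 0.03. The groups are apart for these 27 genes, and genes whose groups overlap, such as Fzd1, Fzd3, Lgr4 and Axin2, are not drawn. The widest gaps are in Rspo1, Dkk2, Wnt16, Sfrp1 and Sfrp2.

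Some Wnt genes stand next to each other on a chromosome, and neighbours did not always give the same call. Wnt6 and Wnt10a are neighbours on chromosome 1, on the same strand and 6.19 kb apart (GRCm38, GENCODE M21). Wnt6 fell 6.28-fold while Wnt10a did not pass the test (log2 fold change -0.01, SE 0.24), and this contrast within the pair was not itself tested. Wnt10b and Wnt1 are neighbours on chromosome 15, 11.7 kb apart and on opposite strands, and both fell. In the other 2 pairs 1 or both genes were nearly silent. Wnt9a had 1077 counts over all libraries and its neighbour Wnt3a had 2, and of the pair Wnt9b and Wnt3 the former had 0 counts and the latter 3.

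Per length, 4 ligands made up most of the Wnt message, and their order changed between groups. In NC, Wnt11 held 24.6% to 28.2% of the summed ligand FPKM, Wnt10b 21.1% to 25.1%, Wnt5a 11.9% to 15.2% and Wnt9a 7.54% to 10.4%. In Ufl1-KO, Wnt5a held 32.3% to 35.1%, Wnt11 21.6% to 25.1%, Wnt10b 16.4% to 17.3% and Wnt9a 8.60% to 10.1%. The leading ligand was thus Wnt5a in each Ufl1-KO library and Wnt11 in NC replicates 1 and 2, while in NC replicate 3 Wnt10b (24.9%) and Wnt11 (24.6%) were close. The summed ligand FPKM was 33.0 to 35.9 in NC and 25.9 to 28.0 in Ufl1-KO. In Ufl1-KO the level of Wnt5a was 9.14 ± 0.145 FPKM against 6.13 ± 0.780 FPKM for Wnt11, and in NC the values were 4.67 ± 0.708 and 9.17 ± 1.02 FPKM (SD, n = 3 each).

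**Figure D3:**
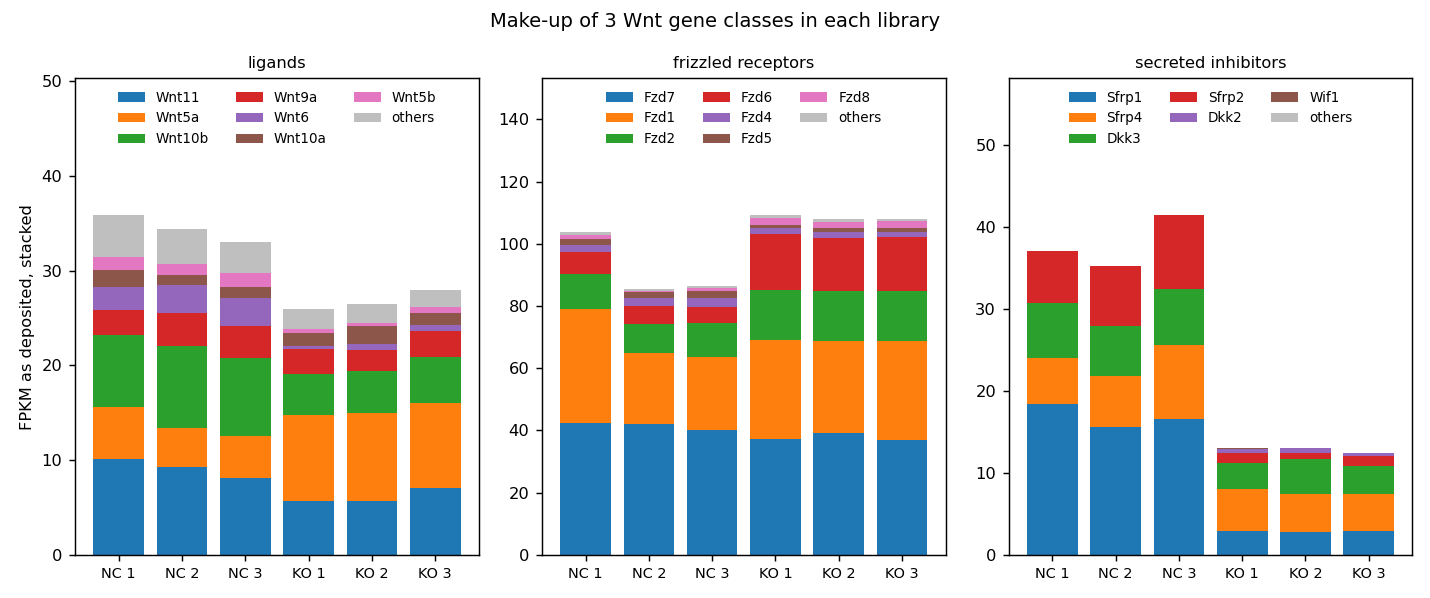
Deposited FPKM of the ligands, Frizzled receptors and secreted inhibitors in each of the 6 libraries, stacked by gene, with the less abundant genes of a class in grey. The secreted inhibitors sum to 35.3 to 41.6 FPKM in NC and to 12.4 to 13.1 FPKM in Ufl1-KO, and the orange segment of Wnt5a is taller in each Ufl1-KO library than in any NC library.

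The Frizzled receptors span the membrane and bind Wnt through a cysteine-rich domain. Of 10 genes 8 were tested, and 3 rose, 3 fell and 2 did not pass (median log2 fold change 0.21), which is near the shares of all genes called (33.3% higher, 33.4% lower). Fzd6, known in mice for hair patterning and planar polarity, had the largest change, from 30.6, 23.6 and 21.8 CPM in NC to 68.2, 67.8 and 67.8 CPM in Ufl1-KO. The rise was 2.68-fold (log2 fold change 1.42, SE 0.12, edgeR adjusted p = 1.12e-05), and 3.01-fold without NC replicate 1, the highest of its controls. Fzd6 lies on chromosome 15 at 39006034 to 39038188 (GRCm38, GENCODE M21). Fzd2, a receptor for Wnt5a, rose too (0.43, SE 0.09), from 41.0 ± 4.10 to 55.3 ± 0.695 CPM.

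Fzd8 was called higher on uneven controls. It was at 9.01, 2.93 and 7.15 CPM in NC and at 12.4, 11.9 and 11.8 CPM in Ufl1-KO (log2 fold change 0.93, SE 0.30, edgeR adjusted p = 0.0215). With any single Ufl1-KO library left out (replicate 1, 2 or 3) the call was lost (adjusted p from 0.0548 to 0.0611), and the log2 fold change was 1.32 without NC replicate 1 and 0.57 without NC replicate 2, the lowest control.

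Fzd5 and Fzd4 fell, the latter known as the receptor for norrin in retinal vessels. Fzd5 was at 12.4, 13.2 and 16.5 CPM in NC and 6.90, 7.47 and 7.75 CPM in Ufl1-KO (log2 fold change -0.92, SE 0.14, edgeR adjusted p = 0.000316). Fzd4 was at 17.3, 17.9 and 19.1 CPM in NC and 12.4, 11.8 and 10.5 CPM in Ufl1-KO (log2 fold change -0.65, SE 0.10, edgeR adjusted p = 0.000513). Neither overlapped between groups. Fzd7, the most abundant Frizzled per length at 41.6 ± 1.29 FPKM in NC and 37.9 ± 1.25 FPKM in Ufl1-KO, was at 203, 206 and 197 CPM in NC and 160, 170 and 157 CPM in Ufl1-KO. Its log2 fold change of -0.31 (SE 0.06, edgeR adjusted p = 0.00138) moved to -0.13 and no longer passed with library size scaling (adjusted p = 0.0638) or with FPKM (adjusted p from 0.0621 to 0.0847).

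The calls for Fzd1 and Fzd3 turned on NC replicate 1. Fzd1, the next most abundant Frizzled, was at 162, 102 and 107 CPM in NC and 126, 118 and 125 CPM in Ufl1-KO, a log2 fold change of -0.01 (SE 0.15). NC replicate 1 was above and NC replicates 2 and 3 were below every Ufl1-KO library. With NC replicate 1 left out Fzd1 was higher by 0.25 on the log2 scale (SE 0.05, edgeR adjusted p = 0.000249). Fzd3, a receptor of axon guidance, was at 8.95, 5.38 and 6.40 CPM in NC and 10.9, 8.89 and 8.16 CPM in Ufl1-KO, with a log2 fold change of 0.44 (SE 0.20, edgeR adjusted p = 0.0784), or 0.69 (SE 0.16, adjusted p = 0.000461) without NC replicate 1. Fzd3 also passed with library size scaling (0.61, adjusted p = 0.0237). Fzd9 and Fzd10 had 46 and 2 counts over all libraries and were not tested.

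Summed over the class, the Frizzled genes stood at 85.3 to 104 FPKM in NC and 108 to 109 FPKM in Ufl1-KO. These sums carry no test and do not use the TMM factors. On log2(FPKM + 0.1) values genes at large were shifted upwards in Ufl1-KO, with a median of 0.168, against 0.004 with TMM scaling. Whether the Frizzled sum differs on the TMM scale was not tested. The share of Fzd6 in this sum was 6.08% to 7.03% in NC and 15.9% to 16.5% in Ufl1-KO, and the share of Fzd7 40.8% to 49.4% and 34.1% to 36.4%. Fzd7 and Fzd1 together led the class in each library.

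The co-receptors LRP5 and LRP6, which relay the canonical signal, and the R-spondin system, which protects Frizzled receptors from the ubiquitin ligases RNF43 and ZNRF3, formed the next class. Of 11 genes 8 were tested, of which 4 fell, 1 rose and 3 did not pass (median log2 fold change -0.22; 62.5% called, against 66.7% of all genes). Lrp5 was at 230, 228 and 239 CPM in NC and 171, 175 and 178 CPM in Ufl1-KO (log2 fold change -0.41, SE 0.06, edgeR adjusted p = 0.000195). The groups were well apart, and the gene led its class per length at 42.2 ± 1.05 FPKM in NC and 36.0 ± 0.935 FPKM in Ufl1-KO. Lrp6 fell by less (-0.23, SE 0.08, edgeR adjusted p = 0.0262), and its call ended with library size scaling (adjusted p = 0.605), in the FPKM fits (adjusted p from 0.736 to 0.754) and without Ufl1-KO replicate 1 or 3 (adjusted p of 0.0791 and 0.112), while without NC replicate 1 it was -0.14.

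Rspo1, a secreted agonist of the R-spondin family, had the largest fall of all members tested. Its counts were 33, 83 and 62 in NC and 7, 0 and 3 in Ufl1-KO, or 1.98, 4.51 and 4.22 CPM against 0.304, 0 and 0.135 CPM. In the fit this was -4.46 on the log2 scale (SE 0.57, edgeR adjusted p = 0.000137), and -5.47 without Ufl1-KO replicate 1. Rspo1 met the low-count filter only through NC, the group where it is high, and its p-value carries that limit. The pooled counts of 178 and 10 gave a level 22.8-fold higher in NC, with an exact (Clopper-Pearson) 95% interval of 12.1 to 48.3 that covers counting error only. Rspo3 did not pass (-0.21, SE 0.17), while Rspo2 had 4 counts over all libraries and Rspo4 none.

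The R-spondin receptors did not move as a block. Lgr6, known as a stem cell marker of skin, rose from 1.68, 1.52 and 1.57 CPM in NC to 5.47, 5.56 and 6.67 CPM in Ufl1-KO (log2 fold change 1.89, SE 0.18, edgeR adjusted p = 2.22e-05), which was 3.71-fold. Lgr4, the most abundant of the receptors, was at 59.6, 40.6 and 44.4 CPM in NC and 57.4, 54.5 and 57.7 CPM in Ufl1-KO and did not pass (0.23, SE 0.13, edgeR adjusted p = 0.146). Without NC replicate 1 it did (0.43, SE 0.07, adjusted p = 4.88e-06), as with library size scaling (0.41, adjusted p = 0.0254) and in 2 of the 3 FPKM fits (adjusted p of 0.0302 and 0.0318). Lgr5, the marker of intestinal stem cells, had 15 counts over all libraries.

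The ligase gene Rnf43 fell. It was at 1.5, 2.88 and 2.93 CPM in NC and 0.824, 0.654 and 0.676 CPM in Ufl1-KO (log2 fold change -1.74, SE 0.32, edgeR adjusted p = 0.00106). The related Znrf3 was more abundant and did not pass, at 16.7 ± 0.887 CPM in NC and 14.4 ± 0.658 CPM in Ufl1-KO (-0.21, SE 0.10, edgeR adjusted p = 0.0712), although its groups did not overlap.

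The secreted inhibitors had the largest fall in summed FPKM of the 6 role classes. All 5 tested of 9 members differed, 4 lower and 1 higher (median log2 fold change -1.09), where 66.7% of all genes differed. Sfrp1, a soluble protein with a Frizzled-like domain that binds Wnt outside the cell, was at 84.8, 73.4 and 78.4 CPM in NC and at 11.8, 11.4 and 11.9 CPM in Ufl1-KO. The log2 fold change of -2.75 (SE 0.09, edgeR adjusted p = 1.45e-07) was a 6.74-fold fall from a level that made it the most abundant inhibitor per length in NC, at 16.9 ± 1.39 FPKM. Sfrp1 lies on chromosome 8 at 23411502 to 23449632 (GRCm38, GENCODE M21). Sfrp2, its close relative, was at 13.5, 15.6 and 19.7 CPM in NC and 2.39, 1.58 and 2.34 CPM in Ufl1-KO (log2 fold change -2.93, SE 0.20, edgeR adjusted p = 3.87e-06).

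Sfrp4, whose human gene is mutated in a bone disorder with thin cortical bone, and Dkk3, a Dickkopf relative that is not a typical LRP antagonist, fell by about the same factor. Sfrp4 was at 14.4, 17.4 and 25.9 CPM in NC and 9.59, 8.94 and 8.38 CPM in Ufl1-KO (log2 fold change -1.09, SE 0.20, edgeR adjusted p = 0.00108). On the FPKM scale its difference was smaller, at -0.50 on log2(FPKM + 0.1) values (limma adjusted p = 0.0317), and without a filter on log2(FPKM + 1) values it did not pass (-0.44, adjusted p = 0.0608). Dkk3 was at 23.9, 21.9 and 24.6 CPM in NC and 10.1, 13.4 and 10.7 CPM in Ufl1-KO (log2 fold change -1.05, SE 0.12, edgeR adjusted p = 7.62e-05).

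Dkk2, a Dickkopf protein that binds LRP5 and LRP6, was the inhibitor that rose and the member with the largest increase. Its counts were 2, 2 and 1 in NC and 39, 37 and 28 in Ufl1-KO, with a fitted log2 fold change of 3.95 (SE 0.43, edgeR adjusted p = 5.01e-05). Dkk2 met the low-count filter only through Ufl1-KO, the group where it is high, and its p-value carries that limit. The pooled counts of 5 and 104 gave a ratio of 16.3 with an exact (Clopper-Pearson) 95% interval of 6.75 to 51.2. Even so, Dkk2 remained a low gene, at 2.92% to 4.38% of the summed inhibitor FPKM in Ufl1-KO. Dkk1, Dkk4 and Sfrp5 had 0 counts in all 6 libraries, where 3 counts correspond to 0.138 to 0.190 CPM, and Wif1 had 4, 0 and 2 counts in Ufl1-KO and none in NC.

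The summed FPKM of the inhibitors was 37.1, 35.3 and 41.6 in NC and 13, 13.1 and 12.4 in Ufl1-KO. In NC, Sfrp1 held 39.9% to 49.5% of this sum. In Ufl1-KO its share was 21.0% to 23.3%, while Sfrp4 held 36.1% to 39.8% and Dkk3 24.3% to 32.0%. These sums describe the members and carry no test.

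The cytoplasmic transducers were all abundant enough to be tested, and their changes stayed below 2-fold. Of the 7 genes, 3 rose, 2 fell and 2 did not pass (median log2 fold change 0.07; 71.4% called, against 66.7% of all genes). Ctnnb1, which encodes β-catenin and had the highest FPKM of all 60 members, was at 569, 421 and 441 CPM in NC and 667, 705 and 660 CPM in Ufl1-KO (log2 fold change 0.51, SE 0.11, edgeR adjusted p = 0.00239). NC replicate 1 was the control closest to the Ufl1-KO libraries, and without it the log2 fold change was 0.66 (SE 0.04). Exons of Ulk4 on the opposite strand share 14.6% of the exon bases of Ctnnb1, and the strand setting of the counts is unknown. Apc, a scaffold of the complex that marks β-catenin for destruction, rose as well, from 107, 95.4 and 99.0 CPM to 163, 157 and 147 CPM (log2 fold change 0.63, SE 0.07, edgeR adjusted p = 6.43e-05).

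The 3 Dishevelled genes, whose products carry the signal from Frizzled to the destruction complex, moved in different directions. Dvl3 rose from 35.9, 34.8 and 33.8 CPM in NC to 53.9, 55.1 and 51.4 CPM in Ufl1-KO (log2 fold change 0.62, SE 0.07, edgeR adjusted p = 7.92e-05). Dvl2 fell from 87.2 ± 8.86 to 66.0 ± 0.841 CPM (-0.40, SE 0.08, edgeR adjusted p = 0.00213). Dvl1 was called lower (-0.18, SE 0.07, edgeR adjusted p = 0.043), but the DESeq2 Wald test, upper-quartile scaling and library size scaling each ended the call (adjusted p of 0.055, 0.0552 and 0.954), as did leaving out Ufl1-KO replicate 1, 2 or 3 or NC replicate 3 (adjusted p from 0.0916 to 0.148), and on FPKM values the difference was 0.00. In FPKM, Dvl2 and Dvl1 led Dvl3 in every library, with Dvl3 at 9.02 ± 0.472 in NC and 16 ± 0.479 in Ufl1-KO.

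Both Axin genes were uncalled. Axin1, the limiting scaffold of the destruction complex, was at 79.3 ± 3.30 CPM in NC and 83.3 ± 3.87 CPM in Ufl1-KO (0.07, SE 0.07, edgeR adjusted p = 0.392), but was called higher with library size scaling (0.25, adjusted p = 0.0106) and in the FPKM fits (0.24 to 0.25, adjusted p from 0.0129 to 0.0135). Axin2, a feedback inhibitor that is widely read as a target of canonical Wnt signalling, was at 4.50, 3.42 and 4.43 CPM in NC and 3.69, 3.49 and 3.02 CPM in Ufl1-KO. The groups overlapped, with a log2 fold change of -0.27 (SE 0.18, edgeR adjusted p = 0.207).

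Of the 4 nuclear factors, Tcf7l1, known mainly as a repressor of Wnt targets, led per length and fell. It was at 44.9, 52.9 and 57.1 CPM in NC and 25.7, 26.6 and 28.0 CPM in Ufl1-KO (log2 fold change -0.95, SE 0.10, edgeR adjusted p = 4.54e-05). Its share of the summed FPKM of the class was 72.3% to 76.4% in NC and 57.1% to 60.1% in Ufl1-KO. Tcf7 was called higher (0.35, SE 0.13, edgeR adjusted p = 0.0318), but not by the DESeq2 Wald test (adjusted p = 0.06), nor when Ufl1-KO replicate 1 or 3, or NC replicate 2 or 3, was left out (adjusted p between 0.0689 and 0.116). Lef1, which is itself a Wnt target, had 45 counts over all libraries and was not tested.

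Tcf7l2, listed in the table in the human style as TCF7L2, did not pass in any fit of its level, and its direction depended on scaling. Its counts were 188, 203 and 175 in NC and 247, 202 and 213 in Ufl1-KO, which after scaling was 11.4 ± 0.455 and 10.4 ± 0.744 CPM and did not pass (-0.13, SE 0.11, edgeR adjusted p = 0.324). With library size scaling the same counts gave 0.05 (adjusted p = 0.688). In FPKM it was at 3.10 ± 0.105 in NC and 3.71 ± 0.242 in Ufl1-KO (0.25 on log2(FPKM + 0.1) values, limma adjusted p = 0.092). If the FPKM were made from these counts, the count divided by the FPKM would follow the length used for the gene in a library. Relative to the gene's mean, and with the library median removed, this ratio of TCF7L2 was 1.063, 1.081 and 1.089 in NC and 0.931, 0.924 and 0.930 in Ufl1-KO (log2 difference -0.21, SE 0.01, limma adjusted p = 0.0324).

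The same ratio was computed for the 27 members with at least 50 counts and 1 FPKM in every library, a comparison chosen after the values were seen. TCF7L2 was the 1 member called, against 0.23% of the 9583 genes with a ratio. The call was lost when Ufl1-KO replicate 1, 2 or 3, or NC replicate 2 or 3, was left out (adjusted p between 0.0534 and 0.141), although the difference stayed at -0.21 to -0.22. Sfrp4 had a larger difference with a wider spread, at 1.080, 1.155 and 1.180 in NC and 0.872, 0.879 and 0.886 in Ufl1-KO (log2 difference -0.37, SE 0.04, limma adjusted p = 0.0541), and passed without NC replicate 1 (-0.41, adjusted p = 0.00952) or without the robust variance (adjusted p = 0.0478). For 8 members, Dkk3, Fzd1, Fzd2, Fzd4, Fzd7, Lgr4, Sfrp1 and Wnt9a, the ratio lay between 0.996 and 1.004 in every library, and over all members other than TCF7L2 and Sfrp4 it ran from 0.906 to 1.1. No source names the transcripts behind a gene's values, so no isoform is named.

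**Figure D4:**
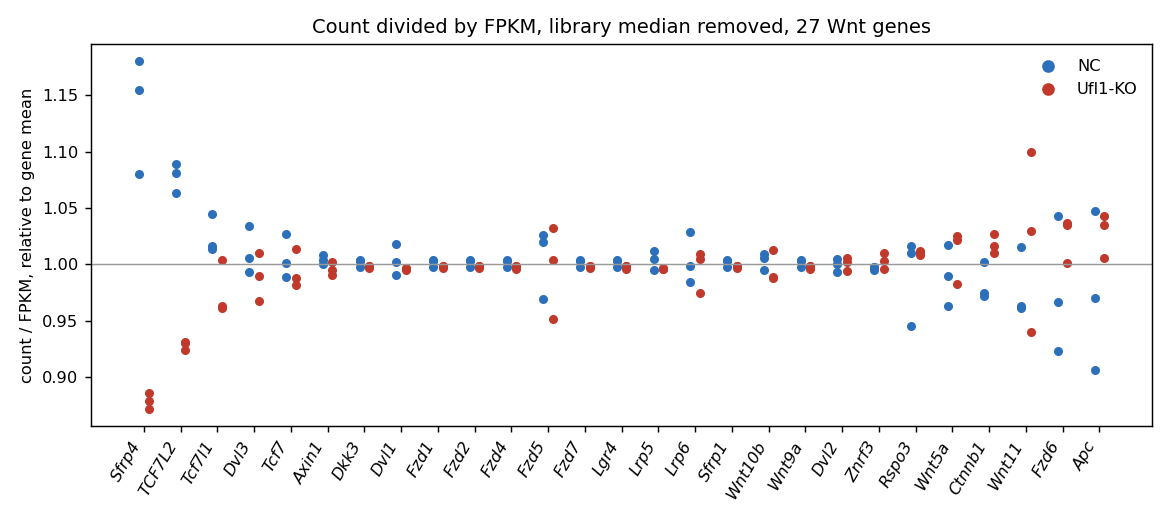
Count divided by FPKM (y axis), with the library median removed and relative to the mean of the gene, for 27 Wnt genes along the x axis, with 1 point per library. Sfrp4 and TCF7L2 lie above 1 in the 3 NC libraries (blue) and below 1 in the 3 Ufl1-KO libraries (red), while Fzd7, Sfrp1 and Lgr4 lie between 0.996 and 1.004 in all 6.

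Beyond the members, 71 other genes of Wnt secretion, reception and response were read from a list, of which 63 were tested. Of these 18 were higher and 29 lower (74.6% called, against 66.7% of all genes), with a median log2 fold change of -0.22. This split depended on scaling too. With library size alone 20 were higher and 22 lower (median -0.04), against 5366 and 3119 of all 12224 genes. In the 3 fits to FPKM 20 were higher and 20 to 22 lower, against 5165 to 5191 and 2984 to 3001 of all genes. Genes of ligand secretion and processing were lower in 6 of 7 and higher in none, where 33.4% of all genes were lower. The groups did not overlap in CPM for 5 of the 7, against 71.7% of all genes, and those of Porcn, called lower, overlapped. Gpc3, a glypican that binds Wnt at the cell surface, fell 19.7-fold from 7.18 ± 1.32 to 0.345 ± 0.212 CPM (log2 SE 0.33). It met the low-count filter through NC, the group where it is high. Gpc6 fell 2.78-fold, the Wnt-inactivating protease gene Trabd2b 2.62-fold and Cthrc1, a secreted cofactor of non-canonical signalling, 1.54-fold. Wls, the carrier that takes Wnt to the cell surface, did not pass (-0.14, SE 0.08).

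Of 15 tested genes for other receptors and planar polarity, 8 were lower and 2 higher (66.7% called, as of all genes). Celsr3, an atypical cadherin of planar polarity, fell from 10.9 ± 1.29 to 2.08 ± 0.395 CPM (-2.37, SE 0.18). Prickle1, also of planar polarity, fell 3.61-fold, Daam2, a formin that binds Dishevelled, 3.16-fold, and Kremen1, a receptor for Dickkopf proteins, 1.70-fold. The 2 that rose were Vangl1 (0.56, SE 0.09) and Vangl2 (0.51, SE 0.11). Of 5 tested inhibitors outside the members, 3 were lower and 1 higher (80% called, against 66.7% of all genes). The lower ones were the Sfrp relative Frzb (-2.33, SE 0.28), the Dishevelled antagonist Dact3 (-1.62, SE 0.12) and Nkd1, another Dishevelled antagonist (-1.85, SE 0.38). Frzb and Nkd1 met the low-count filter through NC, where they are high. The membrane-bound inhibitor Apcdd1 was higher (0.88, SE 0.12).

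In the destruction complex and its ubiquitin ligases, 5 of 13 were lower and 2 higher (53.8% called, against 66.7% of all genes), with shifts between -0.47 and 0.98. Csnk1e (-0.47, SE 0.07), CSNK1A1 (-0.24, SE 0.06) and Btrc (-0.38, SE 0.10), for casein kinases and a β-catenin ubiquitin ligase subunit, were among the lower genes, and the β-catenin antagonist Cby1 rose (0.98, SE 0.15). Library size scaling ended the calls of CSNK1A1 and Btrc (edgeR adjusted p of 0.322 and 0.0914). So did the 3 FPKM fits (limma adjusted p from 0.162 to 0.19 for CSNK1A1 and from 0.0644 to 0.0791 for Btrc). The kinase genes Gsk3a and Gsk3b did not pass (0.05 and -0.17). Of the nuclear cofactors, 9 of 12 were higher and 2 lower, where 33.3% and 33.4% of all genes were. Tle3, a corepressor of TCF factors, rose from 27.4 ± 6.34 to 76.1 ± 0.970 CPM (1.47, SE 0.14), and Tle1 (0.51, SE 0.09), the acetyltransferase gene Crebbp (0.62, SE 0.11) and the chromatin remodeller gene Smarca4 (0.46, SE 0.06) rose by less. NC replicate 1 was the control nearest to the Ufl1-KO libraries for 11 of these 12 genes, against 56.2% of all genes.

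Of the target genes often used as Wnt readouts, 4 were higher and 5 lower of 11 tested, where 33.3% and 33.4% of all genes were. Called in either direction were 81.8%, against 66.7% of all genes. At least 2-fold higher were 4 and at least 2-fold lower were 4, where 7.19% and 10.1% of all genes passed these limits. Ccnd1, encoding cyclin D1, rose from 15, 9.13 and 12.9 CPM in NC to 65.0, 71.7 and 63.1 CPM in Ufl1-KO (2.44, SE 0.15), and Cd44, the hyaluronan receptor gene, rose 2.05-fold. Klf5 fell from 138 ± 8.10 to 41.2 ± 2.68 CPM (-1.74, SE 0.08) and Ppard, a nuclear receptor gene, fell 2.45-fold. Many of these targets also answer to other pathways, so their counts are no measure of Wnt signalling alone.

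**Figure D5:**
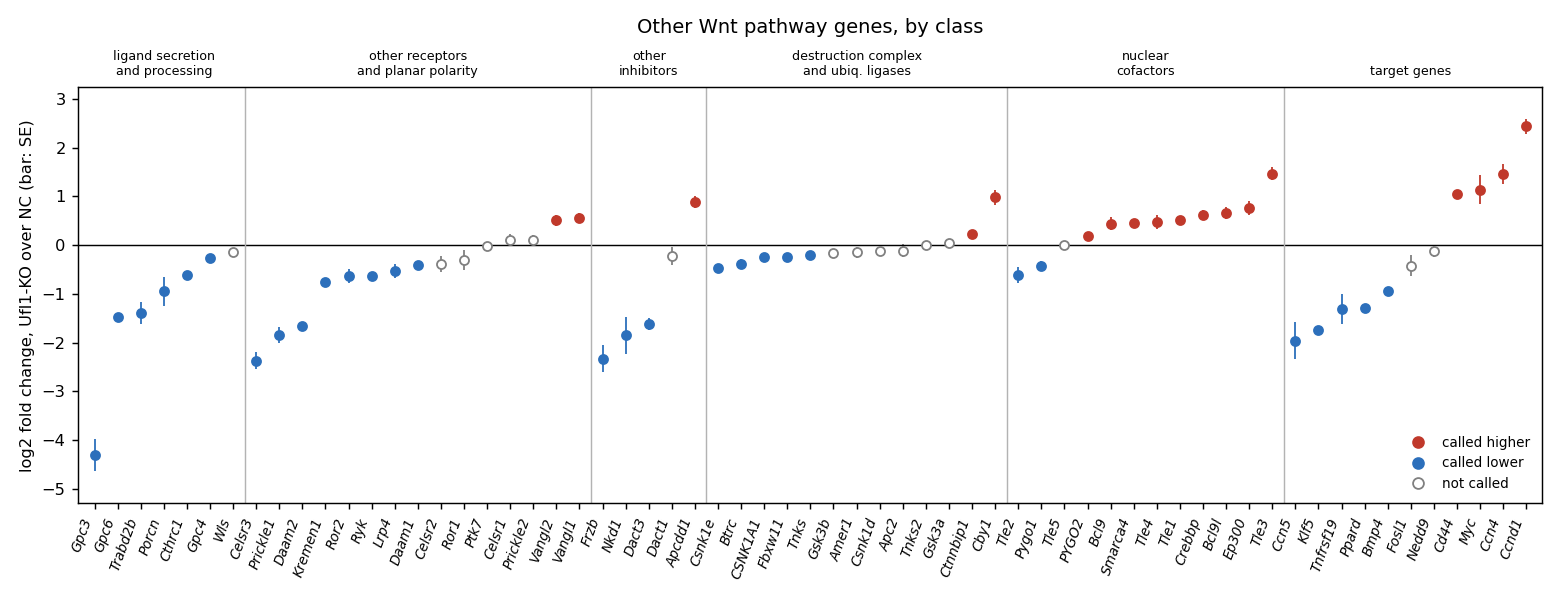
Log2 fold change (Ufl1-KO over NC, y axis) of 63 other Wnt pathway genes by class, with the standard error from edgeR as bars and filled points for genes that passed the test. In the nuclear cofactors 9 of 12 points are called above 0, and in ligand secretion and processing 6 of 7 are called below 0.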

How the data were processed

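Total RNA of 6 MEF libraries was analysed from 2 deposited tables. Per the submitters' processing notes, fastp 0.20.1, STAR 2.7.7a and featureCounts 2.0.0 were used, with the builds mm10, hg38 and GRCh38 and no roles given. No source used here gives the strand setting, the annotation or the step behind fractional values. The deposited estimated counts carry no normalisation, and 7.29% to 8.09% of rows per library lay more than 0.001 from a whole number, so values were rounded. The deposited FPKM values were, per the file headers, scaled by the authors to length and library.

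Rows naming no gene (1225 of 22274, with 0.594% to 0.661% of counts) were left out, and rows sharing a name in any case were summed (1045 names, no member). The test was edgeR 4.0.16 under R 4.3.3 (quasi-likelihood, TMM, filterByExpr, genotype as the only term), two-sided, with Benjamini-Hochberg adjustment over all tested genes at 0.05. CPM uses TMM-scaled totals. The exact permutation test added 0.5 to CPM before the logarithm. Alternatives used DESeq2 1.42.0, limma 3.58.1 (voom, and FPKM with a pseudocount of 1 or 0.1 and a mean of at least 0.1 or no filter), other scalings and filters, rows kept separate, the replicate number as a block, a fold change of 1.5 as the null, and each library left out. The fit was also run on simulated counts in which few genes changed, unlike in these data, so that run does not test the scaling. Exon overlaps come from GENCODE M21, whose genes on the opposite strand share 18.3% of the exon bases of Dvl2, 17.8% of Fzd5, 16.1% of Sfrp2 and 14.6% of Ctnnb1, and 13.7% or less of other members. Without a stated strand setting those counts are uncertain.

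Members and lists were chosen with earlier results of these data known. Values by library are given for called members with an absolute log2 fold change of at least 0.58 and for the most abundant member of each role class by FPKM. Fzd1, Fzd3, Lgr4, Axin2, TCF7L2 and Wnt7a were added after their values were seen. From the wider list, up to 4 called genes per class with the smallest p were named, and others named there were chosen after their values were seen. Each pair of replicates differed by more than sampling noise (chi-square per gene at least 2.35). Intervals cover counting error only. Other steps ran in Python 3.11.15 with scipy 1.17.1, numpy 2.4.6, pandas 2.3.3 and, for figures, matplotlib 3.10.9.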

Additional observations from a re-analysis of the deposited data

How the results depend on the processing

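Of the 33 called members, 18 kept their direction and their call in all 19 alternatives that tested them, among them Sfrp1, Sfrp2, Dkk2, Dkk3, Fzd6, Wnt5a, Wnt6, Wnt10b, Lgr6 and Tcf7l1. Tested against a 1.5-fold threshold rather than no change, 4 members were higher and 15 lower, 6 and 15 of the wider Wnt list, and 1214 and 1587 of all genes. The call for Dvl1 was lost in 10 alternatives, and in the 3 FPKM fits its difference was 0.00 and no longer negative (adjusted p of 0.985 to 0.986). Library size scaling ended the calls of 4 members and added 3. The FPKM fits each called 13 members higher and 18 or 19 lower. Of all genes they called 5165 to 5191 higher and 2984 to 3001 lower, out of 12785, or 15423 without the filter. Leaving out each library in turn gave 8 to 14 members higher and 21 to 23 lower, 15 to 19 and 26 to 33 of the wider list, and 3488 to 4783 and 3607 to 4594 of all genes. Same-numbered libraries did not deviate together (correlations of 0.0178, -0.175 and 0.0132). No pairing by number was seen, but 3 libraries a group cannot exclude it. With the replicate number as a block, 10 members were higher and 22 lower, against 3892 and 3910 of all 12224 genes. In that fit Fzd3 passed (0.45, adjusted p = 0.0306), and Tcf7 and Dvl1 did not (adjusted p of 0.0709 and 0.0893). The 18 members not tested had 46 counts or fewer in all, 6 of them none. Without the filter 54 members were tested, of which 11 were higher and 22 lower, against 4190 and 4135 of all 15422 genes. The planned alignment of proteins was not run, since no protein sequences were used.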

Other observations

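Wnt7a, a ligand of limb and brain development, did not pass the filter on low counts with all 6 libraries. On log2(FPKM + 0.1) values it was higher in Ufl1-KO by 1.45 (limma adjusted p = 0.00401), having met the FPKM filter through that group. It held 13, 17 and 9 counts in the Ufl1-KO libraries and 2, 0 and 0 in NC, a ratio of 15.3 with an exact (Clopper-Pearson) 95% interval of 3.95 to 130 that covers counting error only. It was chosen after the values were seen.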
